A study of Mus musculus with 6 samples.

Results

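The 10 genes examined belong to growth arrest, the p53 response and cell death and were measured in mouse hippocampus after focal cerebral ischemia. They were chosen by symbol, with earlier results of these data known. Cdkn1a, Gadd45g, Gadd45b, Gadd45a, Btg1 and Btg2 were taken as growth arrest genes and Pmaip1 and Apaf1 as death genes. The others are the receptor gene Tnfrsf12a and the stress-induced survival gene Ier3. Of these 10, 8 are among the 637 genes in the authors' deposited table, which lists only genes that passed the authors' threshold, out of 28319 tested as inferred from their p-values. Gadd45a and Btg1 are not listed under their symbols, so neither their level nor their change is known here. Genes were matched by symbol, and 54 of the 637 rows carry none, so a gene called not listed could be among those rows.

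RNA was sequenced from the hippocampus of C57BL/6 mice aged 56 days, described as wild type. The ischemia group (3 samples) underwent focal middle cerebral artery occlusion, a model of stroke made by blocking a large artery of the forebrain, and the sham group (3 samples) had the control surgery. Both groups are titled 2 h, and whether that means the occlusion's duration or a delay after surgery is not said. The labels give neither the hemisphere, the number of animals nor any pooling, so the spread behind the authors' p-values is that between samples and may be technical. The table's value columns are headed M2 and S2; M was taken as ischemia (occlusion) and S as sham by the initials of the treatments, and all directions below depend on this. Its levels are normalised read counts that the authors averaged within each group, with no standard deviation and with library depth unknown. Genes that define the hippocampus could not be checked, because only called genes are listed. In tissue RNA, fewer cells of a type and less RNA per cell cannot be told apart.

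The transcription factor p53 is stabilised by DNA damage and other stress and switches on genes that halt the cell cycle or start apoptosis. Cdkn1a, Btg2, Pmaip1 and Apaf1 are among its known targets, but several of these genes can also be induced without p53, by growth factor, calcium or stress kinase signalling. In the mitochondrial route to apoptosis, BH3-only proteins such as the product of Pmaip1 disable protective BCL2 relatives, cytochrome c leaves the mitochondria, and the scaffold encoded by Apaf1 assembles the complex that activates caspases. Mature neurons do not divide, and in mouse hippocampus Gadd45b and Btg2 are also known as genes induced by neuronal activity.

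Of the 10 genes, 7 were higher in ischemia, where 1.47% of all tested genes were called higher, and 1 was lower, where 0.784% of all tested genes were called lower. The share called in either direction was 2.25% of all tested genes. Because the 10 genes were chosen with earlier results known, these counts are a description. The 7 higher genes had a median rise of 5.01-fold, against 2.10-fold for all 415 higher genes per the authors' deposited table. The 4 listed growth arrest genes carried the large rises, and the death gene Apaf1 was the member that fell.

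The proximal promoters of 4 growth arrest genes are shown because these genes rose together and their start-site sequences differ. They are RefSeq sequences (GRCm38.p6), which were matched for 9 of the 10 genes, all but Pmaip1, and each runs 5′ to 3′ on the gene's strand from 250 bases before the annotated start to 50 after it. The windows are chr13:51846425-51846724 on the plus strand for Gadd45g, chr10:80929841-80930140 on the plus strand for Gadd45b, chr1:134079106-134079405 on the minus strand for Btg2, and chr17:29090729-29091028 on the plus strand for the upstream start of Cdkn1a. Capitals mark TATAAA in both Gadd45 promoters, the cyclic AMP response element TGACGTCA in Btg2, and matches to the 10-base consensus unit of p53 sites in Cdkn1a. The window of the other Cdkn1a start, chr17:29093519-29093818, holds no such p53 match and is not printed. Which of these starts the counted reads came from is not known.
Gadd45g: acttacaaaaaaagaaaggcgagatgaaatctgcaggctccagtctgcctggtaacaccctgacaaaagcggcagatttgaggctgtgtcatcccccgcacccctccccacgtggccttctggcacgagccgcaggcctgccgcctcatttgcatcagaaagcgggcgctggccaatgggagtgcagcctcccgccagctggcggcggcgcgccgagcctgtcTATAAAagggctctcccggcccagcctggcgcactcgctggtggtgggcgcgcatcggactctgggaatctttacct
Gadd45b: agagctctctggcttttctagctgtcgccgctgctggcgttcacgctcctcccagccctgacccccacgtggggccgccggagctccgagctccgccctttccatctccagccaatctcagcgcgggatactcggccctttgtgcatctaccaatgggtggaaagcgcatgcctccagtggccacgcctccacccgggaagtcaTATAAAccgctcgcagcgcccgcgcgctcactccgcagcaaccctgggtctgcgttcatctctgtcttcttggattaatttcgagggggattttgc
Btg2: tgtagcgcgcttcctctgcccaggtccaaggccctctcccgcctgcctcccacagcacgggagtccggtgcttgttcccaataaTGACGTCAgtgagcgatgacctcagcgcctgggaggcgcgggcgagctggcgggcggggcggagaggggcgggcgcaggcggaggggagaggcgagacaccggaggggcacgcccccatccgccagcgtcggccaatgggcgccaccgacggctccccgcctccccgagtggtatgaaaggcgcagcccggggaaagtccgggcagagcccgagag
Cdkn1a: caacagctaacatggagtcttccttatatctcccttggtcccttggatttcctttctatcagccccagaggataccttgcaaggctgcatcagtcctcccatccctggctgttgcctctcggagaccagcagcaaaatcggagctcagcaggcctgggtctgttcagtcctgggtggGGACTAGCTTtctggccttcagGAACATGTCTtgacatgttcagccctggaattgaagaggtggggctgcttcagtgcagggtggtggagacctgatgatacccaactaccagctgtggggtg

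Both strands of each window were searched for 7 motifs: TGACGTCA, its core CGTCA, the AP-1 site TGANTCA, the CArG box bound by serum response factor, an NF-kappaB motif of GGG and CC with 5 bases between, TATAAA, and the 10-base p53 unit. The Btg2 window holds TGACGTCA at positions -166 to -159; this palindrome contains CGTCA on each strand. That motif is in 1.79% of 32851 mouse promoters of the same length and in 8.54% of the 363 promoter windows of genes higher per the authors' deposited table. TATAAA lies at -27 to -22 in Gadd45g, at -46 to -41 in Gadd45b and at -26 to -21 in Btg1, which is not listed. It is held by 13.6% of all promoters and 12.4% of the windows of higher genes. A p53 unit lies at -40 to -31 in Gadd45a, which is not listed. The Cdkn1a window holds p53 units at -73 to -64 and -51 to -42. Only exact matches to the consensus were counted, so units with a mismatch are neither counted nor marked. At least 1 unit occurs in 8.36% of all promoters and in 8.54% of the windows of higher genes. A pair at most 13 bases apart occurs in 24 of the 32851 (0.0731%). Pairs were not among the motifs planned for the search, and their share in the windows of higher genes was not computed. The Cdkn1a window that holds the p53 units belongs to an upstream start, and the window of the gene's other start holds no p53 unit. The NF-kappaB motif is in 50.8% of all promoters, in 68.0% of the windows of higher genes and in the windows of 8 of the 9 genes. Its fixed bases are all G or C. The G and C content of the members' windows ran from 54.0% to 74.7%, beside a median of 52.7% over all promoters. AP-1 matches were in none of the 9 genes' windows, in 7.81% of all promoters and in 5.51% of the windows of higher genes. CArG matches were also in none of the 9, in 1.63% of all promoters and in 3.03% of the windows of higher genes. CGTCA was in 20.8% of all promoters, in 48.5% of the windows of higher genes and, among the 9, in Btg2 and Btg1. These shares were not tested. A match describes letters and not a bound site.

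Gadd45g and Gadd45b encode small acidic proteins that bind PCNA and the p21 protein and activate the kinase MAP3K4 upstream of p38 and JNK. Gadd45g averaged 11696 normalised reads in ischemia and 1054 in sham per the authors' deposited table, an 11.1-fold rise (adjusted p = 7.39e-40). It ranked 30 by fold and 5 by p-value among the 415 higher genes of the authors' deposited table. Gadd45b averaged 7328 normalised reads in ischemia and 826 in sham per the authors' deposited table, an 8.87-fold rise (adjusted p = 0.000198). Both relatives were higher in ischemia, with p-values that lie far apart; the difference between their folds was not tested.

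Btg2 encodes an antiproliferative protein of the BTG/TOB family that recruits the CCR4-NOT deadenylase to messenger RNA. It averaged 9195 normalised reads in ischemia and 1011 in sham per the authors' deposited table, a 9.09-fold rise (adjusted p = 0.0165). By fold it ranked 41 among the higher genes and by p-value 293 per the authors' deposited table. Cdkn1a encodes p21, which blocks cyclin-dependent kinases and PCNA. It averaged 3924 normalised reads in ischemia and 784 in sham per the authors' deposited table, a 5.01-fold rise (adjusted p = 0.00294). Exons of Cdkn1a overlap those of a gene on the opposite strand by 273 of 3553 bases in GENCODE M21, and it is not stated whether the authors counted by strand, so its values are uncertain to that extent.

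**Figure D1:**
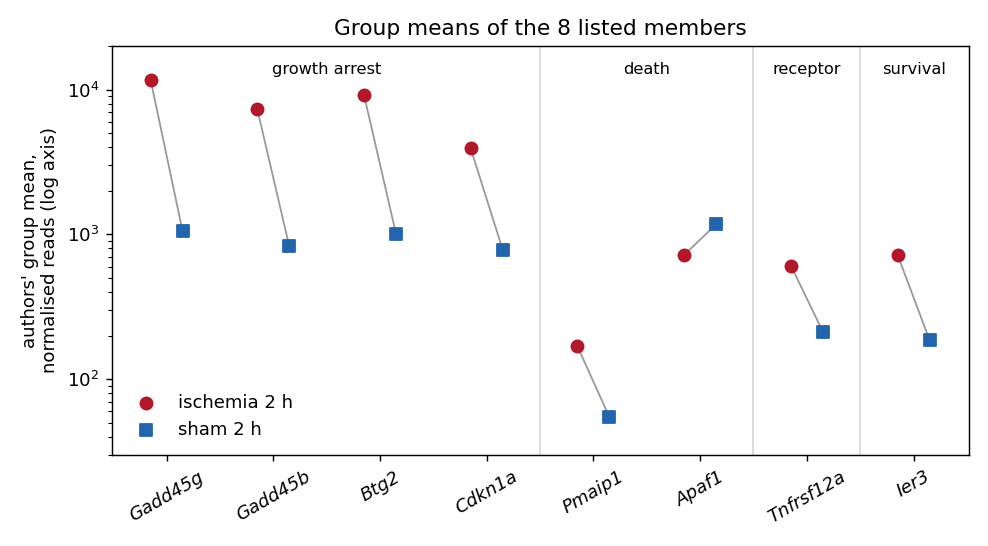
Group means of the 8 listed genes in the authors' deposited table, in normalised reads on a log axis, with ischemia as circles left of sham as squares, grouped by role. The 4 growth arrest genes lie at 3924 to 11696 reads in ischemia and at 784 to 1054 in sham, and Apaf1 alone slopes the other way.

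Among the death genes, Pmaip1 and Apaf1 went in opposite directions. Pmaip1, also called Noxa, encodes a BH3-only protein that binds and neutralises Mcl1. Its group means are low enough for the whole reads of each library to be separated from them. Pmaip1 had 135, 198 and 174 normalised reads in ischemia libraries A, B and C, against 58.3, 47.0 and 59.2 in sham libraries A, B and C. The underlying whole reads were 113, 174 and 210 in ischemia and 51, 52 and 71 in sham. Letters follow the size of each library's scaling factor within its group and pair nothing. All ischemia libraries were above all sham libraries, and the lowest ischemia value was 2.28 times the highest sham value. The mean was 169 ± 31.9 in ischemia and 54.8 ± 6.81 in sham (SD, n = 3 each), and the exact two-sided permutation test gave p = 0.1, the smallest p that 3 against 3 libraries allow. In the authors' deposited table the rise is 3.09-fold (adjusted p = 7.81e-06). Pmaip1 has values here only because that call was made on the same samples, so the separation of its libraries is not independent support.

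Apaf1 encodes the scaffold of the apoptosome, which activates caspase 9. It averaged 720 normalised reads in ischemia and 1177 in sham per the authors' deposited table, a 1.63-fold fall (adjusted p = 0.0347). It was 100th by fold and 182nd by p-value among the 222 lower genes of the authors' deposited table, whose median fall was 1.60-fold. Its fall was thus of a size typical of the lower genes and near the threshold. It is no longer called at an adjusted p of 0.01, with a Bonferroni correction, or with a log2 fold change of at least 1 in size required.

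Tnfrsf12a encodes Fn14, the receptor of the cytokine TWEAK, which acts through TRAF adaptors and NF-kappaB and can promote growth or death depending on the cell. It averaged 610 normalised reads in ischemia and 213 in sham per the authors' deposited table, a 2.86-fold rise (adjusted p = 7.20e-07). The sham libraries held 249, 242 and 148 normalised reads, with library C the low one (213 ± 56.3, SD, n = 3). The ischemia mean can be split in 3 ways; in 2 of them every ischemia library is above every sham library, and in 1 a library falls to 112. The most even split gives 655, 686 and 489 normalised reads in ischemia. Which split is the true one is not known.

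Ier3 encodes a small stress-induced protein, also called IEX-1, that is best known for restraining apoptosis, though in some cells it promotes it. It averaged 724 normalised reads in ischemia and 187 in sham per the authors' deposited table, a 3.88-fold rise (adjusted p = 4.45e-10). Its sham libraries were close together, at 201, 187 and 172 normalised reads (187 ± 14.8, SD, n = 3). Of 5 possible splits of the ischemia mean, 3 place every ischemia library above every sham library and 2 do not, and the most even gives 559, 790 and 823 normalised reads. The other members could not be split in a single way in either group. In sham, Cdkn1a and Gadd45b have 5 solutions each, Btg2 23, Gadd45g 28 and Apaf1 33. In ischemia Apaf1 has 4 solutions, whose lowest and highest libraries lie at 63.1 and 1215 normalised reads, and means above 1500 were not split.

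**Figure D2:**
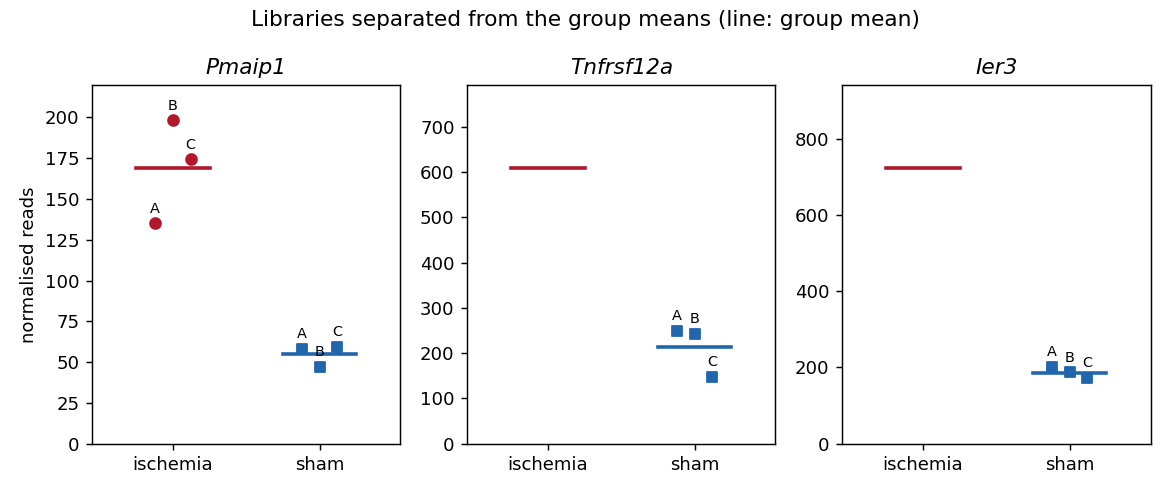
Normalised reads of single libraries for Pmaip1, Tnfrsf12a and Ier3, with ischemia left of sham, points lettered by library and lines at the authors' group means; points are drawn only where the mean splits in a single way. The 3 Pmaip1 libraries of ischemia, at 135 to 198, lie above the 3 of sham, at 47.0 to 59.2.

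Set side by side by role, the 4 listed growth arrest genes rose by 5.01- to 11.1-fold per the authors' deposited table. The 3 other higher genes, among them the death gene Pmaip1, rose by 2.86- to 3.88-fold, and the death gene Apaf1 fell by 1.63-fold. Gadd45a and Btg1 have no values, so the comparison covers called genes only. No test was made over genes, which are not replicates. As a guide to the error of each gene, the standard error (SE) was computed that its p-value would imply if the authors had used a normal test of the log2 fold change. Over 115 listed genes whose libraries could be separated in both groups, that implied SE was a median of 1.19 times the one computed from the libraries (quartiles 0.923 and 1.56). This comparison used only means up to 450, so among the members it covers Pmaip1 alone. It does not reach the levels of the growth arrest genes. For Pmaip1 the implied SE is 0.293 and the one from the libraries 0.188.

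The implied errors, which could not be checked at these levels, split the listed growth arrest genes. Gadd45g has a log2 fold change of 3.47 with an implied SE of 0.251, and its 95% interval of 7.89- to 15.6-fold lies above those of Pmaip1 (2.07 to 4.59), Tnfrsf12a (2.03 to 4.03) and Ier3 (2.68 to 5.62). Btg2 has a log2 fold change of 3.18 with an implied SE of 0.867, larger than that of 97.2% of 635 listed genes, and an interval of 2.80- to 29.5-fold. Gadd45b has an implied SE of 0.645 and an interval of 3.69- to 21.3-fold, and Cdkn1a one of 0.555 and an interval of 2.36- to 10.6-fold. The intervals of these 3 genes overlap those of Pmaip1, Tnfrsf12a and Ier3, and the differences between genes were not tested. The interval of Apaf1 is 0.461- to 0.812-fold; an interval made from the p-value of a called gene cannot include no change. A gene with a small fold had to have a small SE to be listed at all, so the ranking of errors over the table is a description.

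**Figure D3:**
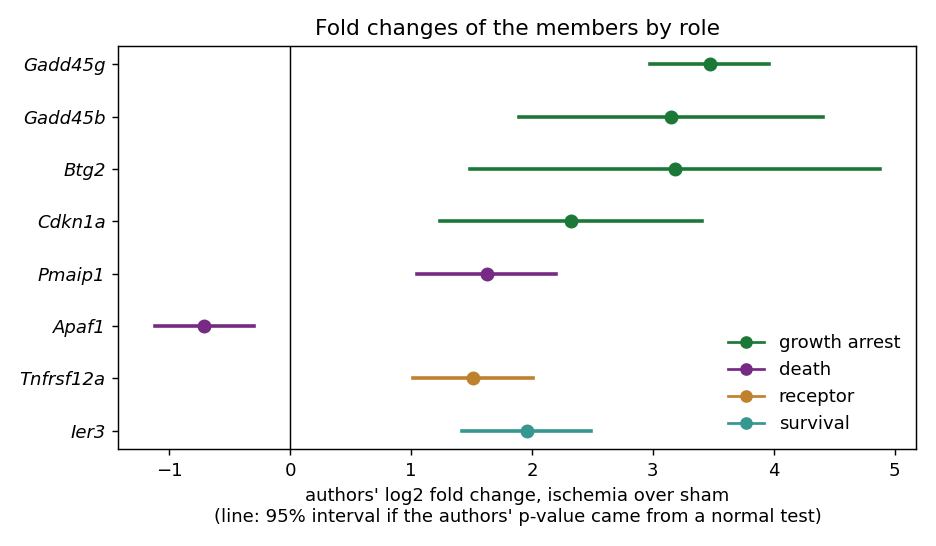
The authors' log2 fold changes, ischemia over sham, of the 8 listed genes coloured by role, with lines for the 95% interval that each p-value would imply under a normal test. Gadd45g has the short line at 3.47, Btg2 the long one from 1.49 to 4.88, and Apaf1 lies at -0.71.

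Levels can be compared between genes only per length of transcript, here the means of the authors' deposited table per kilobase of merged GENCODE M21 exons. In ischemia the levels ran from 9971 normalised reads per kilobase for Gadd45g through 4612 for Gadd45b, 3352 for Btg2, 1104 for Cdkn1a, 640 for Ier3, 316 for Tnfrsf12a and 79.8 for Apaf1 down to 61.9 for Pmaip1. In sham they ran from 899 for Gadd45g through 520 for Gadd45b, 369 for Btg2, 221 for Cdkn1a, 165 for Ier3, 130 for Apaf1 and 110 for Tnfrsf12a down to 20.1 for Pmaip1. The order was the same in both groups except that Apaf1 lay below Tnfrsf12a in ischemia and above it in sham. The 4 growth arrest genes were thus the most abundant of the 8 in both groups, and Pmaip1 the least. Without a standard deviation for most genes, neighbours such as Apaf1 and Tnfrsf12a in sham are not shown to differ.

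The listed genes with a symbol, other than the members themselves, that lie closest to each member in the plane of log2 fold change and log2 sham mean (smallest distance over the group means) were taken by rule. Arl4d was the nearest such gene for Gadd45g, Gadd45b and Btg2, at 8972 normalised reads in ischemia and 827.5 in sham per the authors' deposited table (adjusted p = 5.99e-17). Next to Btg2 and Gadd45g came Ifrd1, 7.07-fold higher with an implied SE of 0.714, and next to Gadd45b came Tiparp, higher by 6.52-fold per the authors' deposited table. For Cdkn1a they were Fam107b and Adamts1, at 4.38- and 5.27-fold higher per the authors' deposited table. For Ier3 they were Shisa2 and Fndc9, for Tnfrsf12a Flnc and B230216N24Rik, for Pmaip1 1810011O10Rik and Cd86, and for Apaf1 Zfp282 and Klhl42. Likeness here covers only 2 group means per gene.

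**Figure D4:**
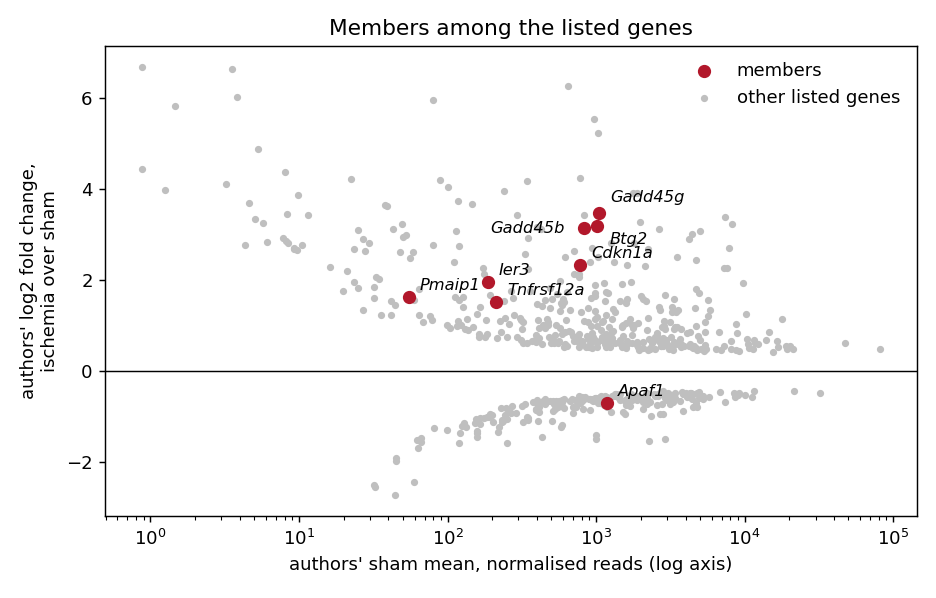
Log2 fold change, ischemia over sham, against the sham mean in normalised reads (log axis) for the listed genes with a sham mean above 0; the 8 members are labelled. Gadd45g, Gadd45b and Btg2 sit close together at sham means of 826 to 1054, and Apaf1 lies within the band of lower genes.

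The other genes of these pathways were mostly not listed. In 8 lists of p53 targets, cyclin-dependent kinase inhibitors, BTG/TOB proteins, GADD45 partners, BCL2 relatives, caspases and their regulators, death receptors and cell cycle drivers, 133 genes reported here are not among the 10. Of these, 8 were higher, 1 was lower and 124 were not listed; the 9 called are 6.77% of them, beside 2.25% of all tested genes. The lists were put together by hand with earlier results of these data known, and the share is given as a description.

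Among 40 p53 targets, 8 were higher and 1 lower, where 1.47% of all tested genes were called higher and 0.784% lower. The 9 listed had a median log2 fold change of 1.63, but 5 of the 9 are members, so this count and median partly repeat the members' values. The others are the stress kinase Plk3, at 1158 normalised reads in ischemia and 431 in sham per the authors' deposited table (2.69-fold, adjusted p = 1.56e-12), and Ppm1d, a phosphatase that dampens p53, 1.85-fold higher per the authors' deposited table (adjusted p = 0.00842). Sertad1, a regulator of CDK4, was 4.72-fold higher and the ubiquitin ligase subunit Fbxw7 1.81-fold higher per the authors' deposited table (adjusted p = 0.0306 and 0.0202). Values are absent for the 31 p53 targets that are not listed, so whether any of them changed is not known here.

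Of 8 cyclin-dependent kinase inhibitors, Cdkn1a and Cdkn1b were higher and 6 were not listed. Cdkn1b, which encodes p27, averaged 4441 normalised reads in ischemia and 2577 in sham per the authors' deposited table (1.72-fold, adjusted p = 0.000803). Btg2 was the single listed gene of 6 BTG/TOB genes. Of 12 GADD45 genes and partners, 3 were higher, Gadd45g, Gadd45b and Pcna, the sliding clamp of DNA synthesis and repair (1.56-fold per the authors' deposited table, adjusted p = 0.000499). Pcna was also the single listed gene of 25 cell cycle drivers.

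Of 22 BCL2 relatives, Pmaip1 and the protective gene Mcl1, whose product Noxa binds, were both higher, and 20 were not listed. Mcl1 averaged 7013 normalised reads in ischemia and 3711 in sham per the authors' deposited table (1.89-fold, adjusted p = 0.0108). Of the 18 apoptosome, caspase and inhibitor genes reported here, Apaf1 was lower and 17 were not listed. Of 24 TNF receptor and death adaptor genes, Tnfrsf12a and the TNF receptor gene Tnfrsf1b (1.67-fold, adjusted p = 0.0375) were higher per the authors' deposited table. The death receptor gene Tnfrsf25 was lower, at 374 normalised reads in ischemia and 993 in sham per the authors' deposited table (2.65-fold, adjusted p = 1.93e-07).

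**Figure D5:**
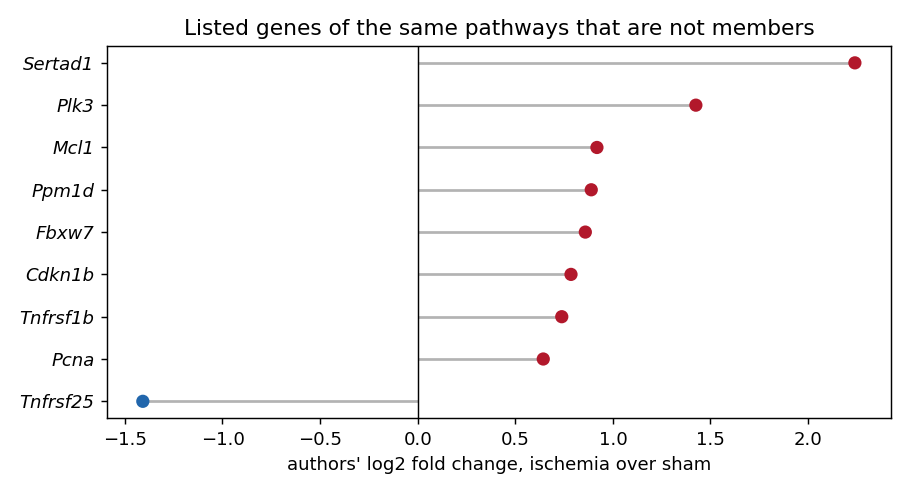
The authors' log2 fold changes, ischemia over sham, of the 9 listed pathway genes reported here that are not members. Sertad1 (2.24) and Plk3 (1.43) are the highest, Mcl1 lies at 0.92, and Tnfrsf25 (-1.41) is lower.

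Markers of 8 cell classes gave 9 listed genes of the 73 reported here, and 0 for neurons, astrocytes, pericytes and choroid plexus with ependyma. Of all tested genes, 2.25% were called, 1.47% higher and 0.784% lower. Of 10 neutrophil and monocyte markers, S100a8 was at 71.1 normalised reads in ischemia and 10.5 in sham, and S100a9 at 59.6 in ischemia and 4.64 in sham, per the authors' deposited table, with 8 not listed. Of 9 microglia markers, Fcrls and Ly86 were higher, 1.47- and 1.53-fold per the authors' deposited table. Of the 11 oligodendrocyte lineage markers reported here, 3 were higher, among them Ermn (1.39-fold), and Gpr17 was lower (1.42-fold) per the authors' deposited table. Of 10 endothelial markers, Sox18 was lower (2.16-fold) per the authors' deposited table. These moved in the same samples as the members, and their part in the members' changes was not tested.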

How the data were processed

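Bowtie 0.12.2 and mouse build mm8 are named in the submitters' processing notes without a role. The identifiers of the listed members in the authors' deposited table are of the Ensembl BALB/cJ strain annotation, per the file headers and identifiers. How reads were counted, scaled and tested, and whether strand was used: not given in the sources used here. A single table of called genes was deposited by the authors. The signal in it is a normalised read count averaged over the 3 samples of a group, its log2 fold change is the log2 ratio of those means without a pseudocount, and its p-values, raw and adjusted, are the authors' own, per the file headers and the values deposited. There are 0 columns per sample.

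The number of genes tested was found as the one for which Benjamini-Hochberg values recomputed from the p-values matched the deposited ones (636 of 637 rows). Whole reads per library were separated from group means as integer combinations of 3 steps, found by lattice reduction of the lowest means and refitted; scaling factors lay between 0.837 and 1.20. Of means up to 450, 134 of 172 in ischemia and 190 of 197 in sham had a single solution. Both procedures were tested on simulated data. Exon lengths and overlaps are from GENCODE M21, by symbol. Named genes are the 10, the 2 nearest genes to each, up to 6 called genes per pathway list and up to 3 per marker list, by smallest p-value. Some genes of the lists are not reported here. Members and lists were chosen with earlier results of these data known. Python 3.11.15, numpy 2.4.6, scipy 1.17.1, sympy 1.14.0 and matplotlib 3.10.9 were used.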

Additional observations from a re-analysis of the deposited data

How the results depend on the processing

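The count of 7 higher genes was 6 at an adjusted p of at most 0.01 (Btg2 lost), 5 with a Bonferroni correction (Btg2 and Cdkn1a lost), and 7 when a log2 fold change of at least 1 or a group mean of at least 50 normalised reads was required. The count of 1 lower gene, Apaf1, became 0 at an adjusted p of at most 0.01, 0 with Bonferroni and 0 with the fold minimum. It was 1 with the level minimum. That minimum could remove no member, because the lowest of their larger group means is 169 (Pmaip1, ischemia). Pseudocounts of 1 and 10 moved each member's log2 fold change by less than its implied SE. Centring on the median of the listed genes (0.66) moved 7 of the 8 by more than that SE, with Pmaip1 at 0.97, Tnfrsf12a at 0.86 and Apaf1 at -1.37. It could not change a sign, because every higher member lay above 0.66 and Apaf1 was already lower. The median covers called genes only, most of them higher, so it is not a reference for scaling. Leaving out each separable library gave 1.50 to 1.76 for Pmaip1 on the log2 scale. It gave 1.31 to 1.64 for Tnfrsf12a and 1.90 to 2.01 for Ier3. For Tnfrsf12a and Ier3 only sham libraries were left out, because their ischemia means split in several ways. How far their folds depend on a single ischemia library is therefore not known. No paired analysis was possible because the columns are group means without replicate numbers. The authors' test could not be run again, and uncalled genes have no values here.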
